A study of Mus musculus with 24 samples.

Results

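The comparison described here is bone marrow 48 h against 24 h after bleeding in male Erfe-/- mice. It rests on 8 of the 24 arrays of the series, the 4 marrow samples whose titles give 48 h and the 4 whose titles give 24 h, and all genes were used. Every mouse lacked Erfe, including those at 0 h, and no wild-type mice were analysed here, so a value below shows how marrow without erythroferrone differed between these times and not what the loss of Erfe did. The mice were bled by retro-orbital puncture, and 4 animals were taken at each of 0, 24 and 48 h. Each array holds total RNA of whole marrow, in which all cell types of the tissue are mixed, and the age of the mice and the volume of blood drawn are not given in the sources used here.

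After blood loss, falling oxygen delivery makes the kidney release erythropoietin. Erythropoietin acts on marrow progenitors through its receptor, the kinase Jak2 and the transcription factor Stat5, and over the following days these progenitors expand and mature into erythroblasts that take up iron, make heme and fill with haemoglobin. Erythroferrone, the product of Erfe, is the hormone by which erythroblasts lower hepcidin in the liver, so that more iron is released for this process. The interval between 24 and 48 h asks what the marrow does once the first response is under way.

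A level is the log2 of a probe's signal after subtracting that of the array's 75th percentile, so that a difference of 1 is a doubling, and every change is 48 h minus 24 h unless other times are named. On the 12 marrow arrays the percentile was 693.8 to 941.8 intensity units, 32009 to 35700 of 56605 probes were well above background on an array, and Spearman correlations between arrays were 0.965 to 0.99. The number of arrays limits the precision, with a median standard error of 0.13 for a change. Both probes for Erfe were dim at 48 h, with 0 of 4 arrays well above background. At 24 h 1 of them exceeded it on a single array, replicate 2, at -2.60. Whether these probes lie in the deleted part of the gene is not given in the sources used here. The marrow markers Hba-a1 of erythroblasts and Elane of neutrophil precursors were at means of 9.54 and 6.70 at 24 h.

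The array labelled marrow 24 h replicate 2 stood apart. The median signal of 25 hepatocyte genes on it was 22.7% of their mean in the 12 liver arrays of the same series (15.3 to 85.2% for single genes), against 0.00785 to 0.0451% on the 11 other marrow arrays. Relative to the 3 other 24 h arrays, the median gene on it was at -0.17. Counts and medians of gene lists are therefore given with all arrays and without this one, and so are the changes of single genes where it moved them by over 1.5 times. The hepatocyte list itself had a median change of -2.10 with the array and 0.23 without it (14 of 25 members tested), and the median of 21 cholesterol synthesis and uptake genes, which liver also makes, went from -0.30 to -0.10. Cat (catalase), Tfr2 (transferrin receptor 2) and Sc5d (a sterol desaturase) were likewise high on that array alone among those at 24 h, at 4.14, 3.73 and 3.04 against at most 2.96, 2.47 and 1.16 on the others. The change of Tfr2 was -0.19 with the array and 0.15 without it, and that of Sc5d -0.73 and -0.22.

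Between 24 and 48 h, 1 gene of 21379 changed past an adjusted p of 0.05 in limma (0.00468%), and it is the same gene without replicate 2 (again 1 of 21379, 0.00468%). This was Nacad, which encodes a NAC alpha domain protein, a relative of the alpha subunit of the complex that meets nascent chains at the ribosome. At 24 h its level was -3.16, -3.29, -3.45 and -3.18 on replicates 1 to 4, and at 48 h it was -2.03, -1.67, -1.98 and -2.15. The groups did not overlap, and the gap between them was wider than the spread within either. Nacad rose by 1.32 (SE 0.12), or 2.49-fold, with an adjusted p of 0.00324 in limma, and without replicate 2 by 1.31 (SE 0.13), with an adjusted p of 0.0217 in limma. The call was lost when only the 8 arrays at 24 and 48 h were fitted (adjusted p 0.0749 in limma) and with the 7 of them left without replicate 2 (adjusted p 0.453). The exact two-sided permutation test of 4 against 4 arrays gave 0.0286, the smallest p it can give. The means at 24 h and 48 h stood 0.93 and 2.25 above the 0 h mean, with adjusted p-values of 0.00368 and 9.82e-06 in limma, so the level stepped up at each time. The comparisons with 0 h share arrays with that of 48 h against 24 h and are given for position. In them 214 genes (1%) passed the threshold at 24 h, or 124 (0.58%) without replicate 2, and 1.06% at 48 h. Arrays of the 2 times lay side by side on each of 3 slides, and within these the change was 1.14, 1.47 and 1.17. Each slide held few of these arrays, and the value of 1.47 comes from a slide whose only 24 h array was replicate 2.

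The probe behind this value is A_52_P406181, which spans 294 bases on the minus strand of mm9 chr11:6498603-6498896, more than its own 60 bases. It is shown because the only call of the comparison rests on it, and no other kept probe of the gene was measured. Its sequence, 5′ to 3′, as the scanner files give it, is on the next line.
Nacad probe: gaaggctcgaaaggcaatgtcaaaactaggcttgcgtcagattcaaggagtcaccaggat
The ubiquitous relative Naca, measured by another probe and chosen after its values were seen, was at 6.14, 5.83, 5.98 and 6.05 at 24 h and at 5.99, 6.12, 6.06 and 5.94 at 48 h, a change of 0.02 (SE 0.09) that was -0.04 without replicate 2. Its groups overlapped.

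**Figure D1:**
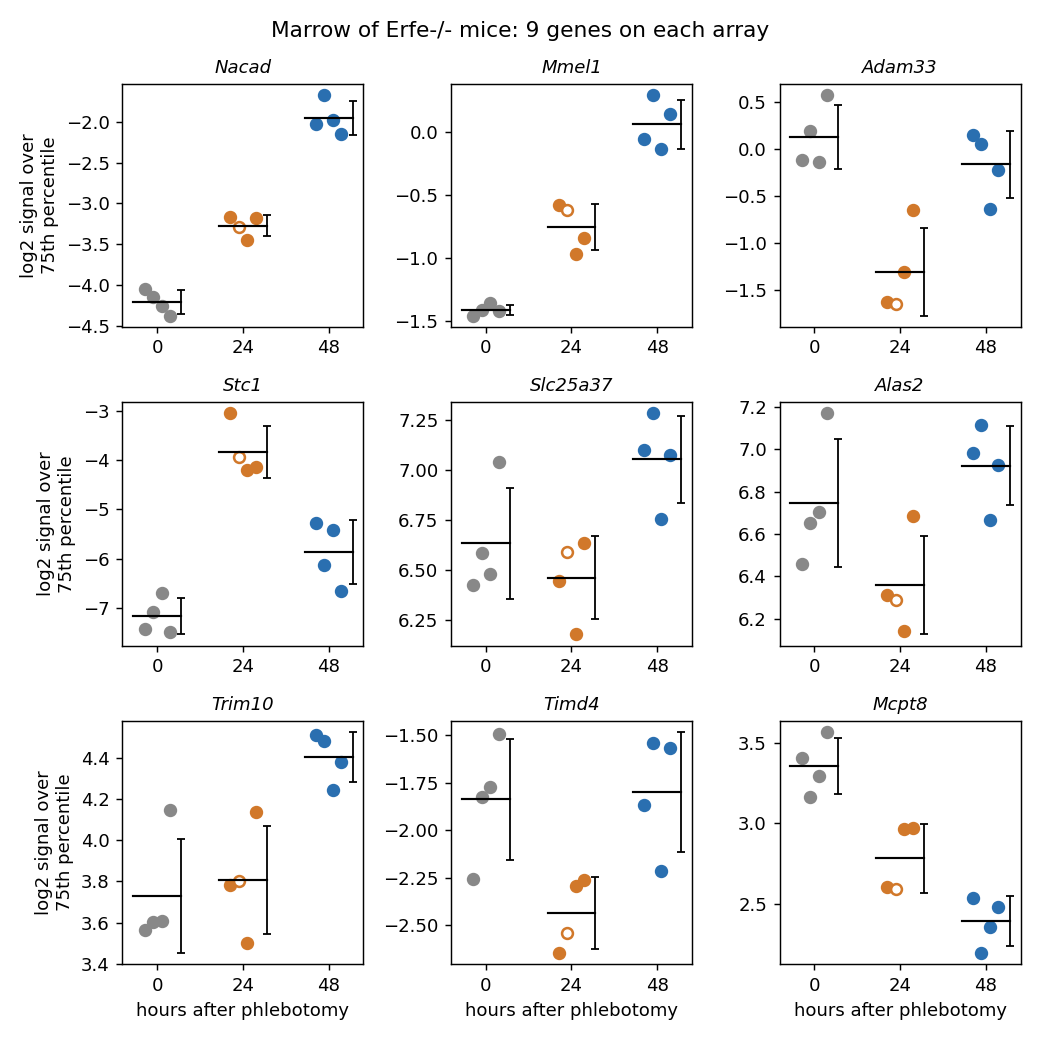
Level of 9 genes (log2 signal over the 75th percentile of the array, vertical axis, its own scale in each panel) on each of 4 marrow arrays at 0, 24 and 48 h after phlebotomy (horizontal axis). Points are arrays in the order of their replicate numbers, the open point is 24 h replicate 2, lines are means and bars are SD. Nacad and Mmel1 step up at each time, Stc1 is high at 24 h only, and Adam33 and Timd4 are lowest at 24 h.

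The rest of the comparison is a broad set of small differences, none of which passed the correction over all genes. Of all 21379 genes 12459 were higher at 48 h (58.3%), and 10647 without replicate 2. An unadjusted limma p under 0.05 was found for 1641 genes (7.68%), of which 1261 were higher at 48 h (5.9%) and 380 lower (1.78%). Without replicate 2 there were 1367 (6.39%), 821 higher (3.84%) and 546 lower (2.55%), so the excess of higher genes was smaller, and without 48 h replicate 1 there were 1093. In both fits together 938 genes met that level, all 938 with the same direction. A fitted change of at least 1 in size was found for 195 genes (0.912%). With the authors' processed values 1041 were higher and 732 lower, 58.7% higher against 76.8% with the scaling used here. The 48 h and 24 h arrays did not overlap for 786 genes (3.68%), 608 higher (2.84%) and 178 lower (0.833%), and without replicate 2 for 1245 (5.82%). Smaller groups fall apart more often by chance, 4 against 3 arrays more than 4 against 4. The 2 shares are therefore not comparable, and the larger one does not show a clearer difference.

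Among the genes with the largest increases, Mmel1, which encodes a membrane metallopeptidase, came nearest to the threshold. It was at -0.58, -0.62, -0.97 and -0.84 at 24 h and at -0.06, 0.29, -0.14 and 0.14 at 48 h. The change was 0.81 (SE 0.11) with an adjusted p of 0.156 in limma, and without replicate 2 it was 0.86 (adjusted p 0.278). Its groups did not overlap, but the genes with the largest increases and decreases were picked for that. They were also picked for an unadjusted p under 0.01 in both fits, so neither trait is further support. As for Nacad, the 24 h mean of Mmel1 was already above its 0 h mean of -1.41. A second probe for Mmel1 gave 0.74.

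Several of the other genes with large increases were low at 24 h against 0 h. Both comparisons use the 24 h arrays, so a low value there enters each, and the 0 h levels are given as a description. Adam33, a disintegrin and metalloprotease, was at -1.63, -1.64, -1.31 and -0.65 at 24 h and at 0.15, 0.05, -0.64 and -0.22 at 48 h, beside a 0 h mean of 0.12. Its groups just failed to overlap, as the rule that picked it required, and the change was 1.14 (SE 0.25, adjusted p 0.439 in limma). Its 3 other probes ranged from -0.52 to 1.39, so the probes did not move alike. Ccdc68 (0.87, adjusted p 0.248), the serine proteases Klk1b27 (1.08, adjusted p 0.557) and Prss50 (0.84, adjusted p 0.427), the synaptotagmin Syt5 (0.95, adjusted p 0.427) and the lectin-like receptor Klrb1b (0.95, adjusted p 0.439) were also lower at 24 h than at 0 h, by 0.79 to 1.03, and at 48 h stood between -0.08 and 0.16 from their 0 h means. At 24 h 2 of 4 arrays had Klrb1b well above background and 3 of 4 had Syt5. Dnah2, a dynein heavy chain, was higher at 48 h by 0.90 (adjusted p 0.557), with 3 of 4 arrays above background at 24 h. Prr19, a proline-rich protein, was detected above background in 0 of 4 samples at 24 h and 4 of 4 at 48 h, and was at least 2.17-fold higher at 48 h. For such a bound the dim group was put, array by array, at the dimmest signal still called well above background, or at the probe's own value where that was greater, and averaged.

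Among the largest decreases, several genes stood above 0 h at 24 h, again with the 24 h arrays shared. Stc1, which encodes the secreted glycoprotein stanniocalcin 1, was at -3.05, -3.93, -4.19 and -4.14 at 24 h and at -5.27, -6.13, -5.41 and -6.66 at 48 h. All 4 of the 24 h arrays had it well above background and 0 of 4 at 48 h or at 0 h, and it was at least 2.66-fold lower at 48 h. Against 0 h it was at least 2.56-fold higher at 24 h, or 2.62-fold without replicate 2. Prr19 and Stc1 passed the filter on dim probes through the time at which they are bright, so no test is given for them. Crybb3, a crystallin, was at -3.02 ± 0.33 at 24 h and -3.96 ± 0.37 at 48 h (SD, n = 4), against a 0 h mean of -4.70. Kif1a (a kinesin), Ramp2 (a partner of the calcitonin receptor family) and Sema3a (a secreted semaphorin) had changes of -0.60, -0.46 and -0.41 after 24 h levels 0.84, 0.68 and 1.06 above 0 h. Syt13, Cc2d2a, Ccpg1os and Btd (biotinidase) were lower at 48 h by 0.69, 0.54, 0.42 and 0.46, with adjusted p-values of 0.439 to 0.574 in limma. Zmynd10 was lower by 0.86, but only 1 of 4 arrays had it well above background at 48 h. That size rests partly on dim signals, and no test is given for it. For Cc2d2a the 48 h level was nearly constant, at -3.31 ± 0.04, and replicate 1 at 24 h was the highest, at -2.20.

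Several genes that differed from 0 h are given here at both times. All but Pim1 were picked in earlier work on the same arrays for their difference from 0 h at 24 h or at 48 h. Their levels against 0 h are therefore a description. Cish, a STAT5-induced inhibitor of cytokine signalling, was at 2.51, 2.21, 2.34 and 2.52 at 24 h and at 1.97, 2.48, 2.42 and 2.0 at 48 h, 2.67 and 2.49 above 0 h. The groups overlapped and the change was -0.18 (SE 0.15, adjusted p 0.777). Pim1, a survival kinase downstream of the same pathway, was 1.16 above 0 h at 24 h and 0.96 above at 48 h. Ankrd36, Trim15 and the G protein subunit Gng13 had 0 of 4 arrays well above background at 0 h. Against 0 h Ankrd36 was at least 9.56-fold higher at 24 h and 8.02-fold at 48 h, Trim15 at least 6.03-fold and 3.91-fold, and Gng13 at least 2.70-fold and 1.42-fold. The changes of Trim15 and Gng13 between 24 and 48 h were -0.63 (adjusted p 0.657 in limma) and -0.92. Gng13 passed the filter on dim probes only through 24 h, where it is bright, so no test is given for it. Of the genes that were low at 24 h, Dapl1 was 1.98 below and then 0.93 below 0 h and the phospholipase Pla2g2d 1.45 and then 0.71 below. Bmp4, a ligand of the BMP family, was 1.32 and then 1.11 below 0 h, and its change of 0.21 was 0.13 without replicate 2. Only 3 of 4 arrays had Gng13 well above background at 48 h, and 3 of 4 had Dapl1 at 24 h. Of the 20 genes picked in that way, 11 were higher and 9 lower at 48 h than at 24 h (10 and 10 without replicate 2), and Nacad was the 1 called. The picking drew on arrays of both times, so these counts are a description too.

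**Figure D2:**
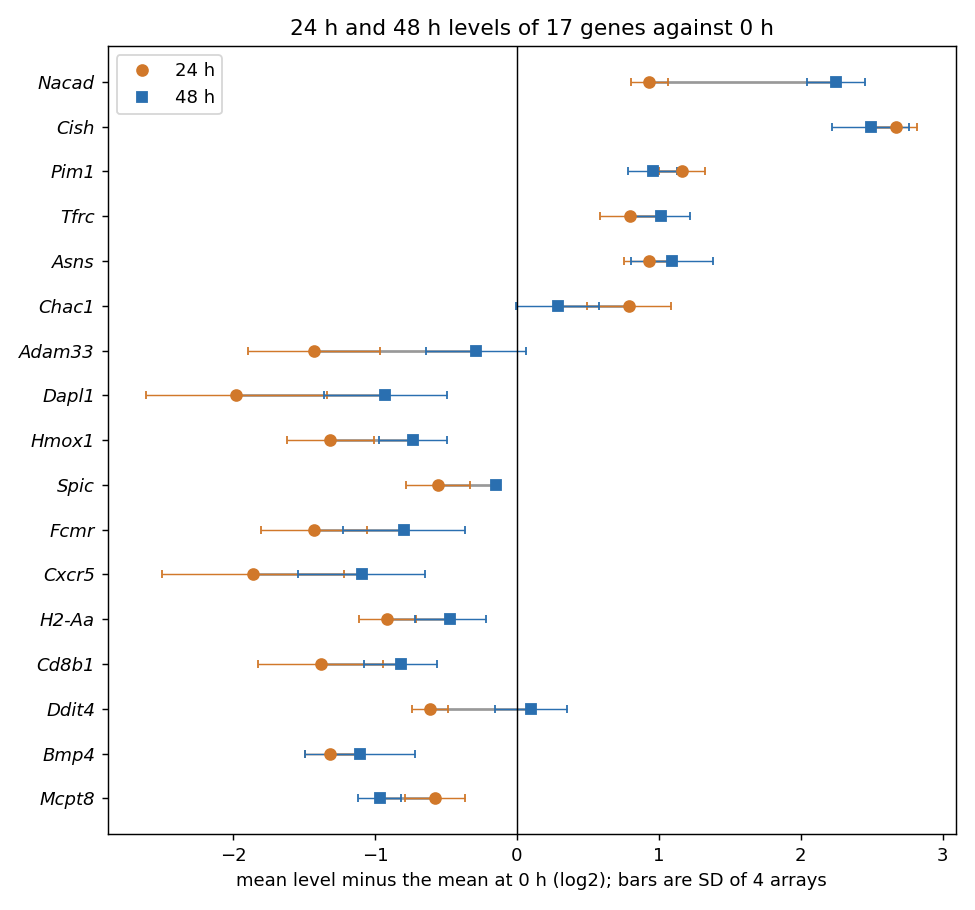
Mean level at 24 h (circles) and 48 h (squares) minus the mean at 0 h (log2, horizontal axis) for 17 genes, with bars for the SD of 4 arrays, 24 h replicate 2 included. Nacad lies at 0.93 and then 2.25, Cish lies at 2.67 and 2.49, and the plotted genes Fcmr, Cxcr5, H2-Aa, Cd8b1, Hmox1 and Spic are below 0 at 24 h and nearer to it at 48 h.

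Genes of maturing erythroblasts lay higher at 48 h as a group. The 5 lists of globins, heme synthesis, red cell membrane, erythroid transcription factors and late erythroblast maturation hold 63 tested genes, and 61 of them were higher at 48 h than at 24 h with all arrays and 61 without replicate 2. Their median change was 0.30, and 0.31 without that array, beside 0.03 and -0.000685 for all genes. At an unadjusted p under 0.05 there were 34 higher (54%) and 0 lower, beside 5.9% and 1.78% of all genes. Without replicate 2 there were 27 higher, beside 3.84% of all genes. Arrays of both times did not overlap for 14 of them (22.2%), all higher at 48 h, beside 2.84% of all genes. None passed the adjusted threshold, with a smallest adjusted p of 0.557 in limma. Array by array, the list medians of globins, heme synthesis and red cell membrane overlapped between the times, and those of transcription factors and late maturation did not. Against 0 h the medians of the 5 lists, in the order given, were -0.09, 0.21, 0.15, 0.09 and -0.05 at 24 h. At 48 h they were 0.08, 0.47, 0.48, 0.32 and 0.28. In bulk RNA a larger share of erythroblasts and more of these transcripts per erythroblast cannot be told apart.

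All 11 heme synthesis genes were higher at 48 h, with a median change of 0.30 (0.27 without replicate 2). At an unadjusted p under 0.05 were 7 of them (63.6%, beside 7.68% of all genes), and 5 without replicate 2 (45.5%, beside 6.39%). Alas2, the erythroid enzyme that starts heme synthesis, was at 6.31, 6.29, 6.14 and 6.69 at 24 h and at 6.98, 7.11, 6.67 and 6.93 at 48 h. Only 24 h replicate 4 reached the lowest 48 h array, and the change was 0.56 (SE 0.16, adjusted p 0.557). Fech, which inserts iron into the ring as the last step, was at 5.85, 5.84, 5.59 and 6.08 and then at 6.44, 6.47, 6.20 and 6.39, a change of 0.54 in groups that did not overlap. Slc25a38, the mitochondrial glycine carrier that feeds the first step, went from 2.39 ± 0.19 to 2.79 ± 0.05 (SD, n = 4), again without overlap, and its change was 0.41. The middle enzymes Alad and Ppox were higher by 0.29 and 0.30. At 24 h Alas2 and Fech were 0.39 and 0.19 below their 0 h means, while Alad was 0.27 above its own. Whether the enzymes differed from each other at 24 h was not tested.

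All 18 red cell membrane genes were higher at 48 h, with a median of 0.38 (0.36 without replicate 2). At an unadjusted p under 0.05 were 11 of them (61.1%, beside 7.68% of all genes), and 8 without replicate 2 (44.4%, beside 6.39%). Slc4a1, the anion exchanger band 3, was at 7.04, 6.99, 6.79 and 7.26 at 24 h and at 7.56, 7.66, 7.28 and 7.43 at 48 h, a change of 0.46 (SE 0.12, adjusted p 0.557). The lowest 48 h array, replicate 3, was just above the highest at 24 h. Tmod1, which caps actin in the membrane skeleton, had the largest change, 0.66, with 48 h replicate 4 highest at 1.77. Rhd, the Rh antigen, was higher by 0.48, the adhesion molecule Icam4 by 0.38 and Epb42, a protein of the membrane skeleton, by 0.39.

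All 8 tested members of the list of globins and their chaperone Ahsp were higher at 48 h, with a median of 0.24 (also 8, with 0.26, without replicate 2). Ahsp, which holds free alpha-globin, was at 8.05, 7.88, 7.63 and 7.99 at 24 h and at 8.30, 8.41, 8.20 and 8.07 at 48 h, and its change was 0.36 (SE 0.11, adjusted p 0.566). Its groups did not overlap. The adult gene Hbb-b1 was higher by 0.47 and the embryonic gene Hbb-y by 0.65 from a level of -3.24 ± 0.39 to -2.59 ± 0.34 (SD, n = 4). Hba-a1 differed little, at 9.54 ± 0.05 and 9.67 ± 0.11, and its change of 0.14 became -0.00012 after quantile normalisation. Globin genes are near copies of each other, so their probes may share targets, which was not tested.

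Of 12 erythroid transcription factors, 11 were higher and 5 at an unadjusted p under 0.05, with a median of 0.22. Without replicate 2 there were 11 and 3, with a median of 0.20. Those at that level were 41.7% and then 25% of the list, beside 7.68% and 6.39% of all genes. The 5 were Ldb1 (0.30) and Lmo2 (0.24), which bridge the factors of the erythroid complex, Foxo3 (0.33), which drives late maturation, Nfe2 (0.21), a partner in globin gene control, and Gfi1b (0.31), a repressor. Lmo2 and Nfe2, 2 of the 12, did not overlap between the times, where 2.84% of all genes did not overlap and were higher. The master factors Gata1 and Klf1 were higher by 0.26 and 0.19 in groups that overlapped, from 4.58 ± 0.12 to 4.84 ± 0.22 and from 2.78 ± 0.21 to 2.97 ± 0.14, and the change of Klf1 was 0.12 without replicate 2. Myb, which keeps progenitors from maturing, was the only one lower, by 0.06 (0.10 without replicate 2), at 3.99 ± 0.10 and then 3.93 ± 0.02.

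In the late maturation list, 13 of 14 were higher and 8 at an unadjusted p under 0.05, with a median of 0.31 (13, 8 and 0.34 without replicate 2). The share at that level was 57.1% in both fits, beside 7.68% and 6.39% of all genes. Trim10, an erythroid ubiquitin ligase of the TRIM family, was at 3.78, 3.80, 3.5 and 4.14 at 24 h and at 4.51, 4.48, 4.24 and 4.38 at 48 h. These did not overlap, and the change was 0.60 (SE 0.16, adjusted p 0.557). Ube2o, which clears ribosomes from reticulocytes, was higher by 0.55, the nuclear exportin Xpo7 by 0.50, the peroxidases Prdx2 and Gpx1 by 0.40 and 0.25 and the mitophagy receptor Bnip3l by 0.33. The 6 other probes of Xpo7 ranged from 0.09 to 0.79. Cat was the member most altered by replicate 2: its change was 0.15 with that array and 0.50 without it.

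To show the start sites of genes that moved together, the 250 bases before the annotated start of Alas2, Trim10 and Slc25a38 follow, with Nacad beside them, from RefSeq on GRCm38.p6. They were searched on both strands for AGATAA, a form of the site that GATA factors bind, and for CCACACCC, a form of the site that Klf1 binds, and matches to either are in capitals. The Alas2 sequence is chrX:150547167-150547416 on the plus strand, that of Trim10 is chr17:36869324-36869573 on the plus strand, that of Slc25a38 is chr9:120110132-120110381 on the plus strand and that of Nacad is chr11:6606055-6606304, read on the minus strand.
Alas2: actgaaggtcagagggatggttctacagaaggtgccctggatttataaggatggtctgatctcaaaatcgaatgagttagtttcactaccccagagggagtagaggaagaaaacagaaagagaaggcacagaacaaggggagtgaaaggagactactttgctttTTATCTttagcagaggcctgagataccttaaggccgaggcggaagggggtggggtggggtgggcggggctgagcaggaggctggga
Trim10: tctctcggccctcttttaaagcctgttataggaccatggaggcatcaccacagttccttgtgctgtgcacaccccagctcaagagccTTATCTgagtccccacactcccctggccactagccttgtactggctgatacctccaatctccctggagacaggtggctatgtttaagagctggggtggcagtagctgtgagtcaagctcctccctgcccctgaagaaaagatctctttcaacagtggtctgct
Slc25a38: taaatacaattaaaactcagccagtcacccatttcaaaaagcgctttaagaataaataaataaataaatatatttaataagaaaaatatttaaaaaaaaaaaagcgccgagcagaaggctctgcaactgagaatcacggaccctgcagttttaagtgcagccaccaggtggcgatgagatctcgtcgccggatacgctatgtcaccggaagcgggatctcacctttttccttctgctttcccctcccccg
Nacad: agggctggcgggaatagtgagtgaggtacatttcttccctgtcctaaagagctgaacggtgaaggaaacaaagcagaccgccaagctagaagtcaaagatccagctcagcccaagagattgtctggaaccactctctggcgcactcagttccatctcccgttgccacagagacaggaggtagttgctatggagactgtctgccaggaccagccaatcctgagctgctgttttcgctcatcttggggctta
Alas2 holds 1 match to the first motif, its first base 86 bases before the start, and Trim10 holds 1, at 163 bases. Slc25a38 and Nacad hold 0 of either. The first motif was found before 7 of 44 tested erythroid genes that have an entry (15.9%), 856 of 12535 tested genes (6.83%) and 2771 of all 27025 genes in the table (10.3%). The second was found before 0 of the 44, 3.57% of the tested genes and 3.19% of all. No match overlapped a match to the other motif. A match is a description of these letters and shows no binding.

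Receptor and feedback genes of the erythropoietin pathway did not follow the erythroblast genes as one group. Of 13 tested, 5 were higher and 8 lower at 48 h, with a median of -0.05 (again 5 and 8, with -0.15, without replicate 2). The 2 at an unadjusted p under 0.05 were both higher: Bcl2l1, which encodes the survival protein Bcl-xL, by 0.37 (SE 0.13, adjusted p 0.608) and Stat5a by 0.28. Leaving out replicate 2 left 1, so the share at that level went from 15.4% to 7.69%, beside 7.68% and 6.39% of all genes. Epor, the receptor, was at 4.13 ± 0.20 and then 4.41 ± 0.19 (SD, n = 4), a change of 0.28 in overlapping groups. The feedback genes had changes on the other side, -0.29 for Socs2, -0.21 for Pim1, -0.40 for Socs3 and -0.18 for Cish, and their groups overlapped in each case.

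Of 21 genes of cellular and mitochondrial iron, 16 were higher and 5 lower, 4 and 1 of them at an unadjusted p under 0.05, with a median of 0.11. With that array left out there were 18 and 3, 2 and 0 of them at that level, with a median of 0.12. The shares at that level were 23.8% and then 9.52%, beside 7.68% and 6.39% of all genes. Slc25a37, the carrier that brings iron into mitochondria for heme, was at 6.45, 6.59, 6.18 and 6.63 at 24 h and at 7.10, 7.29, 6.76 and 7.08 at 48 h. The groups did not overlap, and the change was 0.59 (SE 0.16, adjusted p 0.557), or 0.63 without replicate 2. Its 3 other probes ranged from -2.0 to 0.53, and the mean of its probes changed by -0.22, so its direction rests on which probe stands for the gene. Glrx5 and Steap3, which serve iron-sulphur cluster assembly and endosomal iron reduction, were higher by 0.32 and 0.25. Tfrc, the receptor for transferrin iron, was 0.79 above 0 h at 24 h and 1.02 above at 48 h, and its change between them was 0.22 (adjusted p 0.699). Steap4 was the gene on the lower side, at -2.44 ± 0.23 and then -2.90 ± 0.35. Hmox1, the heme oxygenase that macrophages use to break down heme, was at 3.03, 2.98, 3.52 and 3.54 at 24 h and at 3.93, 4.00, 3.49 and 3.97 at 48 h, beside a 0 h mean of 4.58. Its 48 h replicate 3 lay within the 24 h range, and the change was 0.58 (SE 0.18, adjusted p 0.559).

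**Figure D3:**
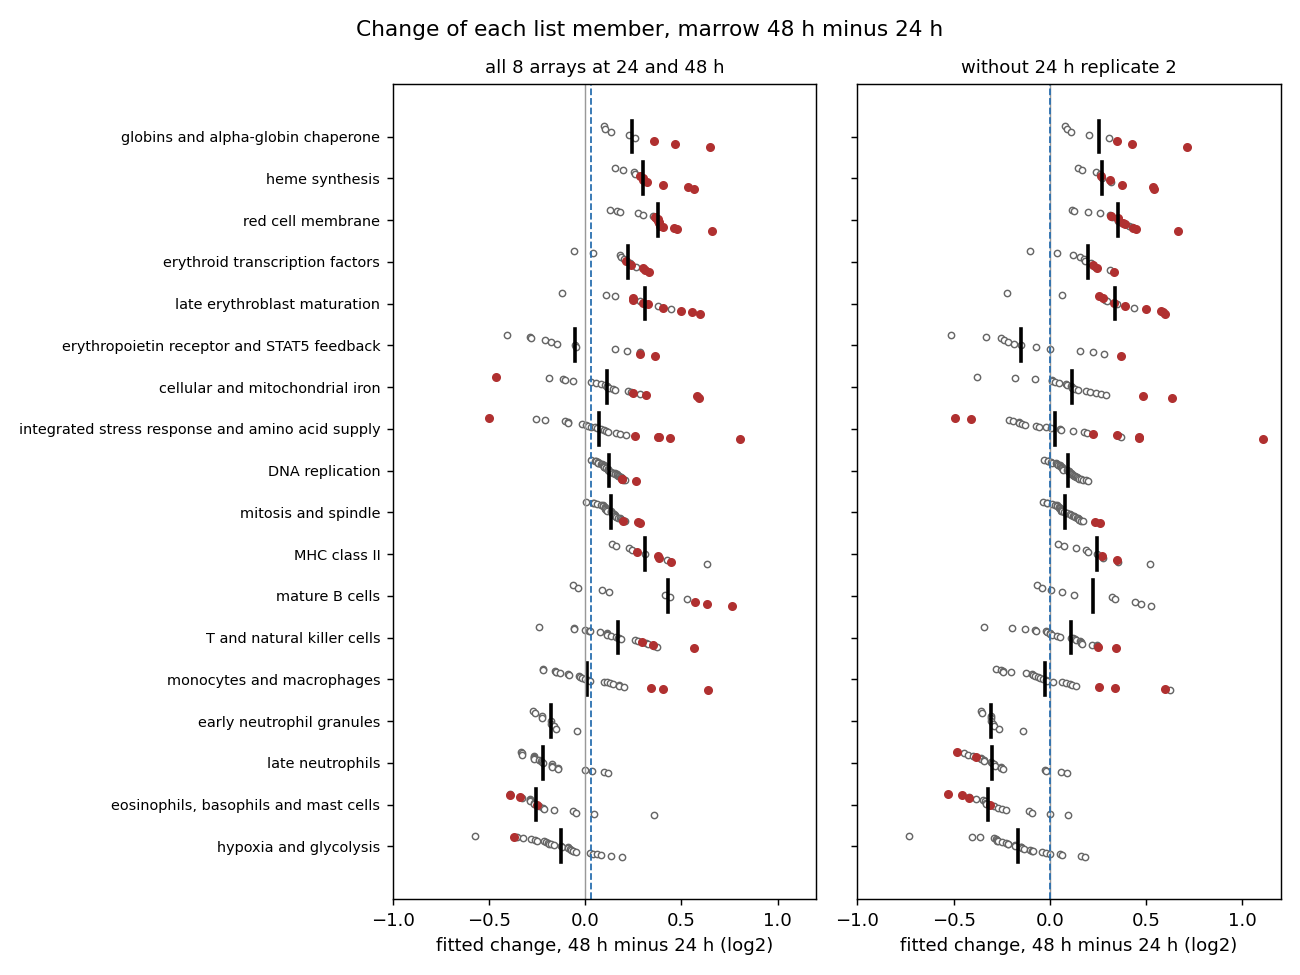
Fitted change, 48 h minus 24 h (log2, horizontal axis), of each tested member of 18 gene lists, with all 8 arrays of the 2 times on the left and without 24 h replicate 2 on the right. Filled points have an unadjusted limma p under 0.05, black bars are list medians and the dashed line is the median of all genes (0.03 and -0.000685). The medians of the 5 erythroid lists lie to the right of it in both panels, and those of the neutrophil and basophil lists to the left.

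Cell cycle genes were higher at 48 h by small amounts, and few reached an unadjusted p under 0.05, a level that 7.68% of all genes met and 6.39% without replicate 2. All 36 DNA replication genes were higher at 48 h, with a median of 0.12. At an unadjusted p under 0.05 were 3 of them, Lig1 (0.19) and Fen1 (0.26), which join and trim new strands, and the chromatin assembly factor Chaf1b (0.19). Without replicate 2 the median was 0.09, with 33 of 36 higher and 0 at that level in limma. Of 30 genes of mitosis, 30 were higher, with a median of 0.14 and 3 at that level. Without replicate 2 there were 27 and 2, with a median of 0.08. Ccnb2, a mitotic cyclin, was higher by 0.29 and Nusap1, a spindle protein, by 0.27.

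Stress response genes split. Of 24 tested members of the integrated stress response, 17 were higher and 7 lower, 5 and 1 at an unadjusted p under 0.05, with a median of 0.07. Leaving out replicate 2 gave 13 higher and 11 lower, 5 and 2 at that level, with a median of 0.03. Genes at that level were 25% and then 29.2% of the list, beside 7.68% and 6.39% of all genes. Ddit3, the factor CHOP, was at 0.06, -0.20, -0.21 and -0.06 at 24 h and at 0.16, 0.55, 0.05 and 0.36 at 48 h, a change of 0.38 (adjusted p 0.557), and Ppp1r15a, the phosphatase subunit that ends the response, was higher by 0.44. Aldh18a1, which makes the precursor of proline, was higher by 0.26. Chac1, a glutathione-degrading target of the same factors, was on the other side, at 0.58 ± 0.30 and then 0.08 ± 0.29 (SD, n = 4). Asns, asparagine synthetase, was 0.93 above 0 h at 24 h and 1.09 above at 48 h. Gdf15, a secreted factor made by erythroblasts under stress and also by injured liver, was at -1.74, -1.22, -3.07 and -2.5 at 24 h and at -1.34, -1.0, -1.40 and -1.56 at 48 h. Replicate 2 was the highest of the 24 h arrays, and the change of 0.81 (adjusted p 0.628) was 1.11 without it, with groups that then did not overlap.

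The medians of the MHC class II, mature B cell and T cell lists were below 0 h at both times and less so at 48 h. Single arrays of the times overlapped for each list. Their medians against 0 h were -1.21 to -0.78 and then -0.82 to -0.42 for MHC class II, and -0.84 to -0.45 and then -0.63 to -0.22 for T cells. For mature B cells they were -1.42 to -0.60 and then -1.03 to -0.22, where 0 h arrays spanned -0.51 to 0.25. All 11 MHC class II genes were higher at 48 h than at 24 h, with a median of 0.31 (0.25 without replicate 2). At an unadjusted p under 0.05 were 4 of them (36.4%, beside 7.68% of all genes), and 2 without replicate 2 (18.2%, beside 6.39%). Their medians against 0 h were -0.94 at 24 h and -0.59 at 48 h. H2-Aa was at 1.1, 0.71, 0.97 and 1.16 and then at 1.48, 1.09, 1.68 and 1.48, a change of 0.44 (adjusted p 0.559), and H2-Eb1 was higher by 0.38. Of 10 tested mature B cell genes 8 were higher, with a median of 0.43 that was 0.22 without replicate 2. The number at an unadjusted p under 0.05 went from 3 (30%) to 0. These 3 were the IgM receptor Fcmr (0.63), the homing receptor Cxcr5 (0.77) and Ms4a1, the antigen CD20 (0.57). Of 25 T and natural killer cell genes 22 were higher and 3 at an unadjusted p under 0.05, with a median of 0.17. Without replicate 2 there were 17 and 2, with a median of 0.11. Those at that level were 12% and then 8% of this list, nearer to the shares of all genes. Among them Lck, a T cell kinase, and Cd8b1, a chain of CD8, were higher by 0.35 and 0.56, and by 0.25 and 0.34 without replicate 2. The list of B cell progenitor genes was not higher at 48 h, with 5 of 14 higher and a median of -0.06 (4 and -0.09 without replicate 2), and Vpreb1, part of the surrogate light chain, was at 2.68 ± 0.46 and then 2.36 ± 0.49. The 7 tested plasma cell genes had medians of -0.23 at 24 h and -0.40 at 48 h against 0 h, with 3 higher and 4 lower at 48 h than at 24 h in both fits. Replicate 2 was the lowest of the 24 h arrays for the MHC class II, T cell and mature B cell lists, at -1.21, -0.84 and -1.42 relative to 0 h.

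Macrophage genes were measured beside these. The list of 24 monocyte and macrophage genes had a median of 0.01, with 13 higher and 11 lower, but 3 were higher at an unadjusted p under 0.05 and 4 did not overlap, all in that direction. Without replicate 2 the median was -0.03, with 10 higher and 14 lower and 3 higher at that level. The 3 were 12.5% of the list in each fit, beside 7.68% and 6.39% of all genes. Of all genes, 2.84% did not overlap and were higher. The 4 genes without overlap were Timd4, Spic, C1qb and C1qa. Timd4, a receptor for dying cells on resident macrophages, was at -2.65, -2.54, -2.29 and -2.26 at 24 h and at -1.87, -1.54, -2.21 and -1.57 at 48 h, a change of 0.64 (SE 0.18, adjusted p 0.557). Spic, the heme-induced factor of iron-recycling macrophages, was at 1.88, 1.43, 1.45 and 1.75 and then at 2.03, 2.03, 2.06 and 2.02. Its 48 h arrays were nearly equal, and the change was 0.41 (adjusted p 0.592). The complement genes C1qb and C1qa were higher by 0.34 and 0.20, and Vcam1 by 0.17, and without replicate 2 C1qa and Vcam1 by 0.14 and 0.11. Ccr2, of inflammatory monocytes, was on the other side at 2.66 ± 0.26 and then 2.44 ± 0.21.

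Granulocyte genes lay lower at 48 h as lists, mostly within the spread between arrays. All 9 early neutrophil granule genes were lower, with a median of -0.18 and 0 at an unadjusted p under 0.05 in limma. Without replicate 2 all 9 were again lower, with a median of -0.30 and 0 at that level. Cebpe, a granule gene factor, and Elane, neutrophil elastase, had changes of -0.26 and -0.16, and of -0.36 and -0.27 without it. Of 20 late neutrophil genes 16 were lower, with a median of -0.22 (18 and -0.30 without replicate 2). Retnlg, at 7.42 ± 0.17 and then 7.16 ± 0.19, was the 1 of 20 whose groups did not overlap. Of all genes, 0.833% did not overlap and were lower. Fpr1 and Mmp8 (10% of the list, beside 6.39% of all genes) had an unadjusted p under 0.05 without replicate 2, with changes of -0.48 and -0.38. Of 18 eosinophil, basophil and mast cell genes 16 were lower, with a median of -0.26 (-0.32 without replicate 2). At an unadjusted p under 0.05 were 3 (16.7%, beside 7.68% of all genes), and 4 without replicate 2 (22.2%, beside 6.39%). The basophil protease Mcpt8 was at 2.60, 2.59, 2.96 and 2.97 at 24 h and at 2.54, 2.19, 2.35 and 2.48 at 48 h, a change of -0.39 (SE 0.13, adjusted p 0.574) in groups that did not overlap. Prss34, another basophil protease, and Ms4a2, a chain of the IgE receptor, had changes of -0.34 and -0.25. Mcpt8 was already 0.58 below 0 h at 24 h and was 0.97 below at 48 h.

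**Figure D4:**
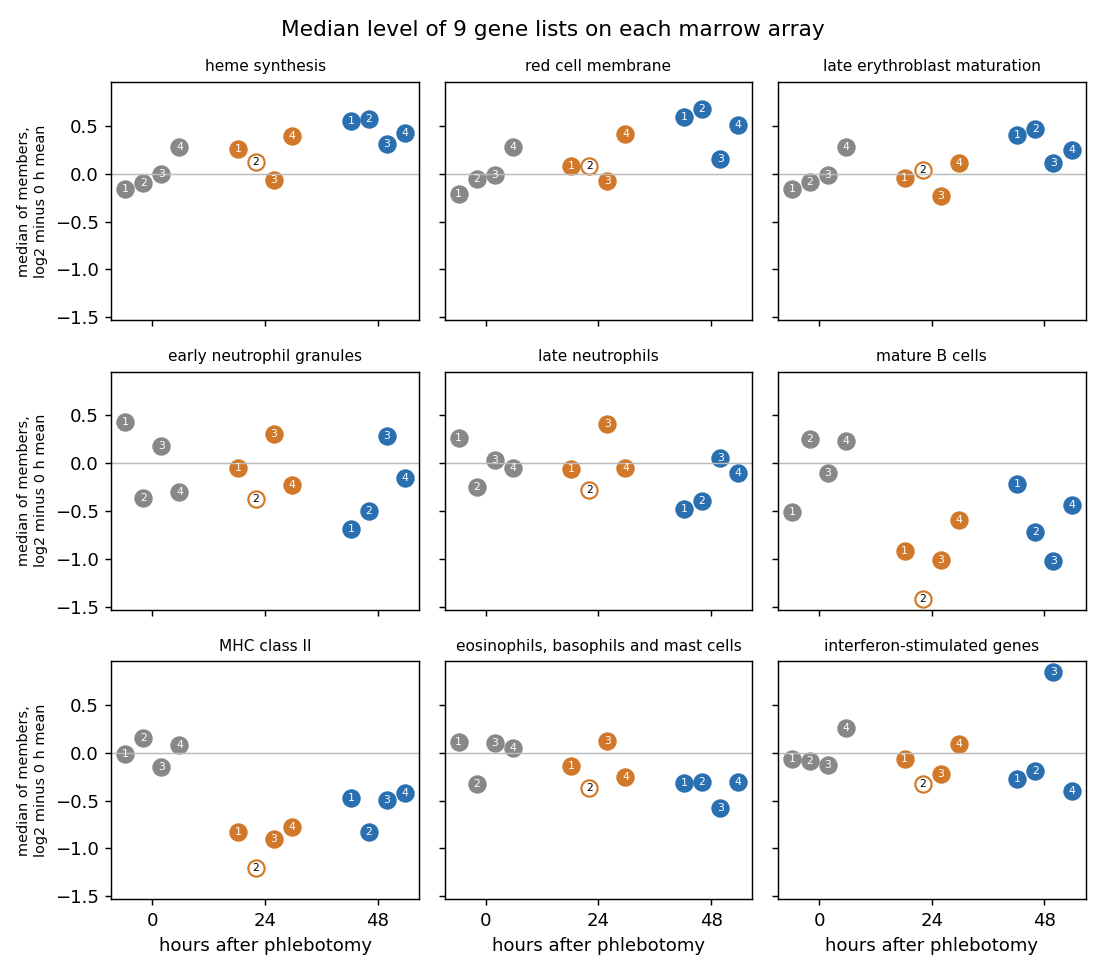
Median of the members of 9 gene lists, as log2 level minus the mean at 0 h (vertical axis), on each marrow array at 0, 24 and 48 h (horizontal axis). Digits are replicate numbers and the open point is 24 h replicate 2. Replicate 3 is the lowest array for the red cell membrane list and the highest for the neutrophil lists at both 24 and 48 h, and 48 h replicate 3 alone is high for interferon-stimulated genes.

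Replicate 3 at each time stood apart in the balance of erythroid and neutrophil lists. Relative to 0 h, the red cell membrane list was at 0.08, 0.08, -0.08 and 0.41 on 24 h replicates 1 to 4 and at 0.59, 0.67, 0.16 and 0.51 at 48 h, and the late neutrophil list was at -0.06, -0.28, 0.41 and -0.05 and then at -0.48, -0.39, 0.06 and -0.11. The arrays with the lowest red cell median, replicate 3 at each time, had the highest neutrophil median of that time. Among the other 24 h arrays the order of the lists was not opposed. The part of this balance in the differences between the times was not tested. Leaving out both replicate 3 arrays, an alternative chosen after seeing the data, gave a count of 1757 genes at an unadjusted p under 0.05 and 0 past the adjusted threshold, where Nacad had an adjusted p of 0.101.

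Among genes outside blood formation, Col3a1, a fibrillar collagen, was at 1.07, 0.63, 0.65 and -0.10 at 24 h and at -0.39, -0.96, -0.30 and -0.14 at 48 h, a change of -1.01 (SE 0.37, adjusted p 0.608). The endothelial receptor Tek was also lower, by 0.43, and both did not overlap between the times. The other 22 of 24 genes of stroma, bone and vessels overlapped, and that list's median was -0.000295 (-0.05 without replicate 2). Of all genes, 3.68% did not overlap. Of 28 hypoxia and glycolysis genes 22 were lower, with a median of -0.12 (23 and -0.17 without it). Vegfa, the vessel growth factor, was the 1 at an unadjusted p under 0.05 (3.57%, beside 7.68% of all genes). It was at 0.63 ± 0.24 and then 0.26 ± 0.24, and without replicate 2 there were 0 at that level in limma. Pdk1, a kinase that restrains pyruvate oxidation, went the other way, by 0.19. Ddit4, which glucocorticoids and hypoxia both raise, was at 2.45, 2.48, 2.62 and 2.73 at 24 h and at 3.39, 3.33, 3.5 and 2.92 at 48 h, without overlap. Its change was 0.71 (adjusted p 0.608). Of 8 glucocorticoid-induced genes 3 were higher and 5 lower, with a median of -0.03 (5 and 3, with 0.05, without replicate 2). In each fit 1 was at an unadjusted p under 0.05 in limma (12.5%, beside 7.68% and 6.39% of all genes). Of 14 circadian clock genes 12 were lower, with a median of -0.17 (11 and -0.10 without replicate 2). Per2, with a change of -0.26, was the 1 at an unadjusted p under 0.05 (7.14%, beside 7.68% of all genes). Without replicate 2 there were 2 at that level (14.3%, beside 6.39%). Per1 was higher by 0.61. The hours of the day at which the mice were taken are not given in the sources used here.

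Some lists were led by single arrays. The median of interferon-stimulated genes reached 0.84 above 0 h on 48 h replicate 3, while the remaining 48 h arrays had -0.40 to -0.20. Irf7, the factor that amplifies the interferon response, was at 5.13 on that array and at 3.73 to 4.09 on the remaining 3, and its change of 0.32 was 0.19 without 24 h replicate 2. The list had 21 of 25 higher, with a median of 0.10 (17 and 0.07 without that array). Rsad2, higher at 48 h by 0.55, was the 1 gene of this list at an unadjusted p under 0.05. The share of the list at that level was 4% in both fits, beside 7.68% and 6.39% of all genes. Skeletal muscle genes had medians of 1.71 on 48 h replicate 2 and 1.5 on 24 h replicate 4, and -0.07 to 0.54 elsewhere at these times. Megakaryocyte genes were higher in 16 of 19, with a median of 0.15 (15 and 0.10 without 24 h replicate 2) and 0 at an unadjusted p under 0.05 in limma, and were highest on 48 h replicate 2, at 0.64. BMP and SMAD feedback genes were lower in 6 of 9, with a median of -0.18 (7 and -0.17 without it) and 0 at that level, and Id1 was at 1.47 ± 0.22 and then 1.19 ± 0.26.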

How the data were processed

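Per the labels' protocols, total RNA of marrow from Erfe-/- mice was isolated with Trizol and chloroform and labelled with Cy3 for single-colour Agilent arrays. The deposited intensity of each spot was extracted by the authors with Agilent Feature Extraction 10.10.1.1, per the submitters' processing notes, and is background subtracted but not normalised between arrays, per the file headers. A second deposited table holds the authors' own log2 values, whose steps are not given in the sources used here. It was used only as an alternative.

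Processed intensity was converted to log2 and each array's 75th percentile was subtracted. Control and outlier spots were left out. Probes had to be well above background throughout at least 1 marrow time, and the kept probe with the highest mean stood for its gene. The 12 marrow arrays were fitted together in limma 3.58.1 under R 4.3.3 (lmFit and eBayes, two-sided), with Benjamini-Hochberg adjustment over 21379 genes and a threshold of 0.05, and again without marrow 24 h replicate 2. The fit was tested on simulated data in which 200 genes were changed. It recovered 21 of 50 changes of 0.5 in size, 39 of 50 of 1, 39 of 50 of 1.5 and 47 of 50 of 2, with 7 false calls. Noise was drawn for each gene alone, so differences that many genes of an array share were not covered. Exact permutation tests over arrays are two-sided. The labels give 4 mice per time and no further detail.

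Genes were named by a rule: Erfe, called genes, the 10 largest changes each way among genes at an unadjusted p under 0.01 in both fits whose arrays did not overlap, and, for each of 36 gene lists, up to 4 members with the smallest p and members the list is known for. Nacad's relative Naca, and genes named for a single array or for having few members beside them, were chosen after their values were seen. The members and lists were chosen with earlier results of these data known. Alternatives covered scaling, background, filters, probes, slide, replicate number, variance model, weights and arrays left out, and 3 were added after seeing the data. Probe positions are mm9, per the file headers. Some list members are not reported here by name. Exon and UTR positions of probes were not analysed here.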

Additional observations from a re-analysis of the deposited data

Results flagged for a closer look

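For 10 of 236 groups of 4 arrays (2 times for each of 118 named genes), 1 array lay apart from the others by more than Dixon's critical value, where chance gives about 1 in 20. At 24 h, Tfr2 was at 3.73 on replicate 2 against 2.26 to 2.47, Aldh18a1 was at 1.24 on replicate 2 against 1.36 to 1.38, and Cd8b1 was at -2.03 on replicate 2 against -1.19 to -1.08. On 24 h replicate 3, Hbb-y was at -3.82 against -3.10 to -3.00, Asns at 4.33 against 4.65 to 4.71, and Retnlg at 7.67 against 7.32 to 7.38. On 24 h replicate 4, Ccpg1os was at -1.34 against -1.15 to -1.11. At 48 h, Hmox1 was at 3.49 on replicate 3 against 3.93 to 4.00, Sema3a at -2.34 on replicate 2 against -2.60 to -2.56, and Ccr2 at 2.13 on replicate 1 against 2.52 to 2.57.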

How the results depend on the processing

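Nacad kept its direction under all 28 alternatives, with changes of 0.92 to 1.38, and stayed past the threshold under 24. The count of called genes was 0 with only the 8 arrays at 24 and 48 h (Nacad adjusted p 0.0749), 0 with the 7 of these left without 24 h replicate 2 (0.453) and 0 when 24 h replicate 2 and 48 h replicate 3 were both left out (0.114) or both replicates 3 were (0.101), all of which leave fewer arrays to estimate the spread. The last 2 of these were chosen after seeing the data. Array weights gave 2, with Mmel1 beside Nacad. Leaving out 1 array at a time gave 1 called gene in each of 12 fits and 1093 to 2240 genes at an unadjusted p under 0.05, lowest without 48 h replicate 1. Same-numbered arrays at 24 and 48 h had correlated deviations of 0.171, 0.127, 0.113 and -0.0624, and 5 of 8 arrays correlated best with that of their own number. The labels tie no number to a shared animal or batch, and 1 of the 4 correlations was below 0. The numbers were therefore not taken as pairing. The replicate block gave 2 called genes, Klrb1b beside Nacad, and 1734 at an unadjusted p under 0.05. Slide as a block gave 1 called gene, Nacad, and 2244 at that level, against 1641 in the main fit.

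Of 118 named genes, 113 kept their direction under every alternative that measured them. Naca was at -0.0055 with the median scaling, -0.0092 with the authors' values, -0.042 with array weights, -0.0355 with the 7 arrays, -0.046 without the first pair above, and -0.0355 to 0.068 with single arrays left out. Hba-a1 was at -0.00012 after quantile normalisation and -0.0076 with the authors' values, and Slc25a37 at -0.22 with the mean of its probes. Tfr2 was at 0.033 with array weights, 0.15 with the 7 arrays, 0.21 without the first pair and -0.34 to 0.15 with single arrays left out, highest without 24 h replicate 2. Irf7 was at -0.00429 with array weights and -0.11 without that pair. The medians of the 5 erythroid lists stayed above 0 under all 28 alternatives.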
